A study of Arabidopsis thaliana with 20 samples.

Results

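The regions described here are the 232 peaks of DNase I accessibility that the authors' list for one condition, the spray control, placed on the mitochondrial sequence. They were chosen by chromosome name alone and make up 0.677% of the 34254 peaks in that list. The other 33780 lie on the 5 nuclear chromosomes and 242 lie on the plastid sequence. DNase I-seq releases and sequences small fragments of accessible DNA. It was applied to 7-day-old Arabidopsis thaliana seedlings of the INTACT line UBQ10:NTF::ACT2:birA (background Col-0). In that line the UBQ10 promoter drives a tag on nuclei and the ACT2 promoter drives the ligase that adds biotin to it, so nuclei can be pulled down.

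The spray control plants grew in a light/dark (LD) cycle, 16 h at 22 °C in light and 8 h at 20 °C in darkness, were lightly sprayed with 0.5% ethanol and were left for 3 h. Untreated plants of the same cycle (LD control) and plants after 30 min at 45 °C (LD heat shock) are the nearest groups. The remaining groups were grown in darkness and sampled either without light, 30 min or 3 h into light, or once moved to the LD cycle for 24 h. Each condition has 1 library, entered as 2 samples with identical peak files and counted once, which gave 7 lists. No condition has a replicate, so no value below has an error between libraries and no test between conditions could be made.

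Plant mitochondria keep their own genome, which encodes subunits of the respiratory complexes, of the ATP synthase and of the mitochondrial ribosome, together with ribosomal and transfer RNAs. It is drawn as a circle, recombines across large repeats, and is packed in nucleoids without histones. Preparations of plant nuclei carry some organelle DNA with them. Arabidopsis chromosome 2 also holds a long nuclear copy of most of the mitochondrial genome near its centromere, so many short reads of mitochondrial origin have a near-identical place in the nuclear sequence.

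The letters show how close the copy is. The sequences below are taken from RefSeq assembly TAIR10.1, plus strand, 5′ to 3′. They were chosen because they are the spray control peaks with the highest signal in the chromosome 2 copy (lines 1 and 2) and the one with the highest signal among those that differ from the mitochondrion by single letters (line 3), with its mitochondrial match in line 4. Capitals mark the differing letter, and lines without capitals are identical to the mitochondrial sequence of the same assembly over all 150 bases. Line 1 matches the minus strand of the mitochondrial sequence and line 2 its plus strand.
chr2:3378101-3378250: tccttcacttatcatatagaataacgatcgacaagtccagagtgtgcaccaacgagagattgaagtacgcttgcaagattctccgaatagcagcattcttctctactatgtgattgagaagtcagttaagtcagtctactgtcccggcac
chr2:3500801-3500950: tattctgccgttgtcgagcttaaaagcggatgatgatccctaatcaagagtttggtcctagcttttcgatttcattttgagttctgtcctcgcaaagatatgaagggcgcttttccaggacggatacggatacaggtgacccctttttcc
chr2:3314461-3314610: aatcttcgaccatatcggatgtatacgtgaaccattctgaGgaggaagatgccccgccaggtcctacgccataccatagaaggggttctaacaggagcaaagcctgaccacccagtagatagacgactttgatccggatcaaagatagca
mitochondrion:332583-332732: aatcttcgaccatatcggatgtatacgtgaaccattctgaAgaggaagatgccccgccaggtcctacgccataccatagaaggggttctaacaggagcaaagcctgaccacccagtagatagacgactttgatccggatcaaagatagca
Lines 3 and 4 differ by 1 letter. In the spray control list these 3 nuclear peaks had signals of 2690, 2547 and 1591. The 232 mitochondrial members have no sequence printed here, because the labels name build TAIR10 and TAIR10.1 is known to hold a different version of the mitochondrial sequence.

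Mitochondrial peaks were present in the spray control list and in no other. The lists of the dark, 30 min, 3 h, 24 h, LD control and LD heat shock libraries each held 0 peaks on the mitochondrial sequence and 0 on the plastid sequence. Whether those sequences were removed before peak calling in the other 6 libraries is not given in the sources used here, so the zeros cannot be read as a lack of mitochondrial DNA. All comparisons of signal below therefore stay within the spray control list.

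**Figure D1:**
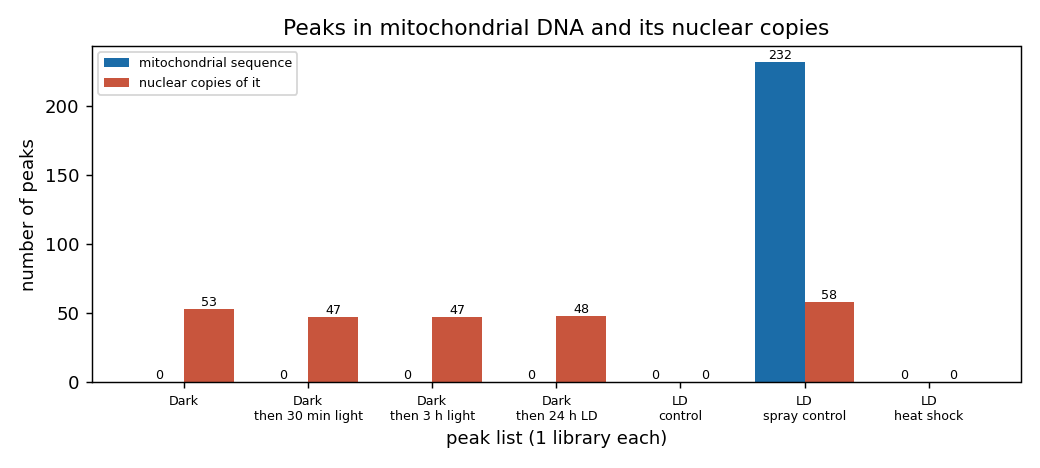
Number of peaks (vertical axis) on the mitochondrial sequence and in nuclear copies of it, for each of the 7 lists with 1 library each. The spray control has 232 mitochondrial peaks and the other lists have 0, while nuclear copies hold 47 to 58 peaks in 5 lists and 0 in the LD control and the LD heat shock.

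The members were uniform in shape and uneven in place. All 232 were 150 bp wide and all began on a grid of 20 bp. Of the nuclear peaks, 33767 of 33780 had that width, and all began on the same grid. The first mitochondrial peak lay at 161 to 310 and the last at 366541 to 366690, in the coordinates of the deposited list. Over this span there were 63.3 mitochondrial peaks per 100 kb, against 28.4 on the nuclear chromosomes, a ratio of 2.23. With both restricted to the upper 50% of the list by signal the ratio was 3.98. Peaks covered 9.49% of the mitochondrial span and 4.25% of the nuclear chromosomes. The plastid peaks were denser still, at 189 per 100 kb of their own span.

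Most members stood in 4 dense runs. A run is defined here, after the positions were seen, as at least 10 consecutive peaks with no free distance over 1800 bp. The runs held 196 of the 232 peaks (84.5%) in 100.4 kb, 27.4% of the span. Within them there were 195 peaks per 100 kb, and outside them there were 13.5 per 100 kb. The plastid density of 189 per 100 kb is not a like measure. Its span includes a free distance of 26250 bp, while runs leave out every free distance over 1800 bp. Counted in bins of 5 kb, 30 of 74 bins held no peak, 19 held at least 7, and the fullest held 12.

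Run 1 went from 161 to 44610 and held 86 peaks. Run 2 went from 183301 to 209890 with 49 peaks. Run 3 was short, from 283801 to 290050, with 12 peaks, and run 4 went from 343621 to 366690 with 49. On a circular molecule runs 4 and 1 are neighbours across the origin and together extend over 67.7 kb.

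**Figure D2:**
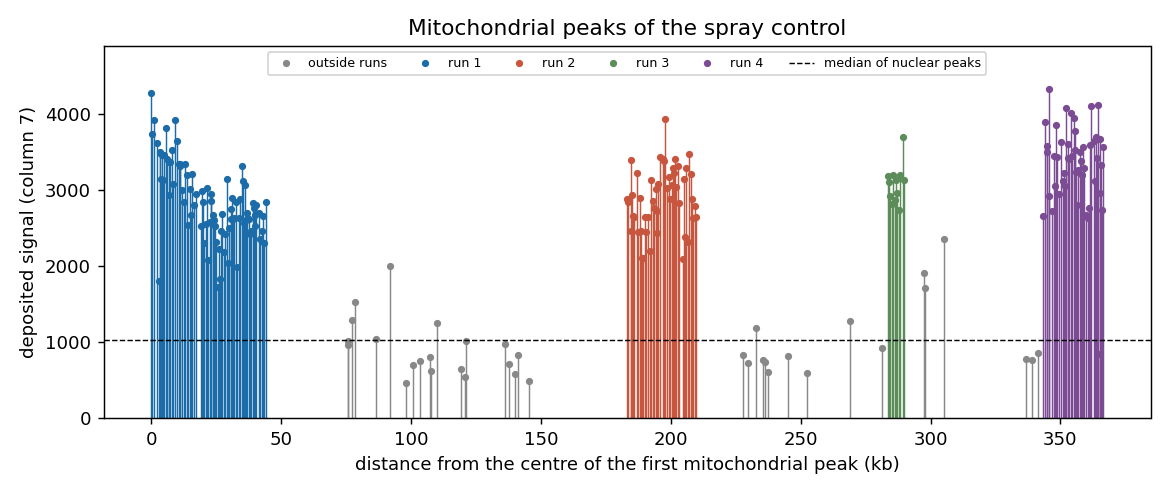
Deposited signal (column 7, vertical axis) of each of the 232 mitochondrial peaks against its distance in kb from the centre of the first peak, with the runs in colour, peaks outside runs in grey and the median of nuclear peaks (1036) as a dashed line. The 4 runs stand as blocks with medians of 2821 to 3430, and the peaks between them lie mostly below 1300.

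Signal followed the same division. Column 7 of the authors' lists is a whole number per peak, read here as a signal in the list's own units. Over all 232 members it ran from 468 to 4330 with a median of 2857, and the median member stood at percentile 94.7 of the whole list. The 196 peaks in runs had a median of 2976 (quartiles 2651 and 3379). The 36 peaks outside had a median of 824 (quartiles 713 and 1080). The median in runs was 2.87 times the nuclear median of 1036, and that outside runs was 0.795 times.

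Runs were defined by spacing, after the positions were seen, and peaks in runs and outside them hardly overlapped in signal. Spacing and signal come from the same called peaks, so the division in signal is not separate support for the runs. Whether spacing depends on signal in this list was not tested. Of the peaks in runs, 195 exceeded the nuclear median and 183 exceeded the nuclear 90th percentile (2279). Of the 36 peaks outside, 10 exceeded the nuclear median and 1 the 90th percentile. None of the peaks outside reached the lower quartile of those in runs. The peaks of a run come from 1 library and 1 stretch of DNA, so these are descriptions of the list and carry no test.

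Against the plastid, mitochondrial signal was low. All 242 plastid peaks exceeded the highest mitochondrial peak, and their median was 122072, 42.7 times that of the mitochondrial peaks. Of the nuclear peaks, 187 also exceeded the highest mitochondrial one. Summed over peaks, the plastid took 40.3% of the list's signal and the mitochondrion 0.864%, of which 0.815% came from the runs. A sum over called peaks depends on how much sequence was called, which was 30.5% of the plastid span.

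**Figure D3:**
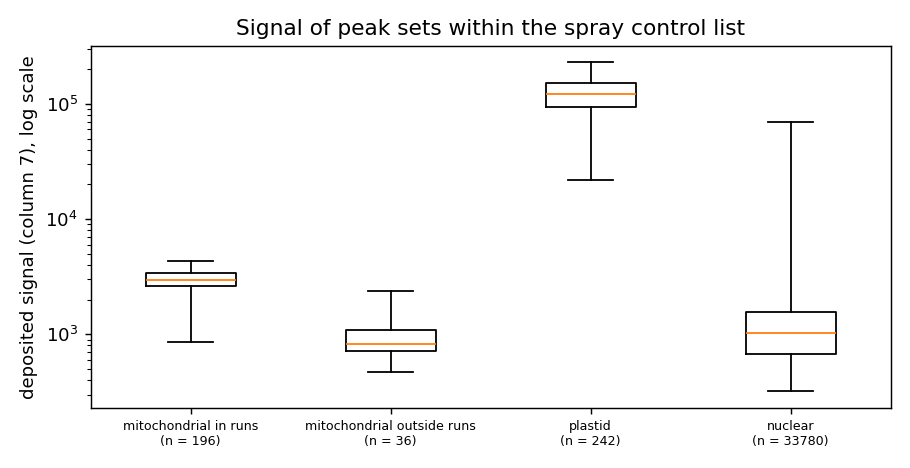
Box plots of the deposited signal (column 7, log scale) within the spray control list for mitochondrial peaks in runs and outside runs, plastid peaks and nuclear peaks. Boxes give quartiles and median and whiskers the lowest and highest peak; mitochondrial peaks in runs (median 2976) lie above the nuclear box and below every plastid peak, the lowest of which is 21721.

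Single peaks within a run varied. Run 4 had a median of 3430 and an SD between its 49 peaks of 558, and run 1 a median of 2821 with an SD of 506. Run 2 had a median of 2891 (SD 414) and run 3 a median of 3123 (SD 251). Of the 196 peaks, 185 lay between 2000 and 4000. The largest difference between run medians, 3430 against 2821, was a little above the SD between single peaks in either of those runs.

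Run 1 declined over its first 30 kb. In successive bins of 5 kb its median signal was 3500, 3413, 3324, 2955, 2608 and 2272. It then rose to 2639 and stayed at 2661 and 2658 in the last bins. Run 4, across the origin, joined at a similar height: its full bins had medians of 3441, 3438, 3340 and 3511. Its last bin, which ends the sequence, held 5 peaks with a median of 3334. Run 2 began with a median of 2870.5 in a bin of 4 peaks. It was at 2649 in the bin starting at 185001 and 2651 in the next. The bin starting at 195001 had 3175, the one after it 3150 and the last bin 2844.

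The members with the highest signal lay near the origin of the sequence. The highest was at 345941 to 346090 in run 4, where the signal was 4330, at percentile 98.7 of all peaks. The next was the first peak of the sequence, 161 to 310, with 4284. Of the 10 highest, 6 were in run 4, 3 in run 1 and the remaining one, at 198021 to 198170 with a signal of 3941, in run 2. Percentiles of these 10 ran from 98.3 to 98.7 of the whole list, in which all 242 plastid peaks were higher. Against nuclear peaks alone, 11 mitochondrial peaks, these 10 among them, exceeded the 99th percentile (3883).

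Single peaks departed from their run. At 364701 to 364850 run 4 held a peak with a signal of 852, which begins 30 bp after the end of one with 4129, among the 10 highest of all. It was the only peak in a run below 1500. At 3001 to 3150 run 1 held a peak with a signal of 1805 between neighbours of 3619 and 3490. Its deposited −log10 p was 12.8. Both peaks were picked after their values were seen.

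Peaks outside the runs were few and weak. The 5 lowest members were all there: 468 at 98221 to 98370, 490 at 145421 to 145570, 541 at 120861 to 121010, 579 at 140021 to 140170 and 593 at 252761 to 252910. They stood at percentiles 4.92 to 18.4 of the list, whose own lowest peak had 320. Of the 36 lowest members, 33 were outside runs.

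A handful outside the runs were higher, though only the highest of them exceeded the nuclear 90th percentile. The highest was at 305521 to 305670 with 2358, followed by 2007 at 92241 to 92390. The pair at 297661 to 297810 and 297981 to 298130 had 1907 and 1719, and 1528 stood at 78541 to 78690. These 5 were the only ones outside runs above 1500. The peak at 305521 borders an empty stretch of 31.2 kb on its right and one of 7.39 kb on its left, so it stands alone.

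Long stretches held no peak. There were 15 of at least 5 kb, adding up to 219.7 kb or 59.9% of the span, and by the definition of a run none lay within one. The longest was 37.7 kb, from 145571 to 183300, between a peak of 490 and the first peak of run 2 (2891). The next were 31.2 kb from 305671 to 336880, between peaks of 2358 and 778, and 31.1 kb from 44611 to 75740, between the last peak of run 1 (2847) and one of 1013. A stretch of 18.1 kb followed run 2, from its last peak (2650) to one of 837 at 228021 to 228170. The fifth, of 16.2 kb, lay between 593 at 252761 and 1283 at 269081 to 269230. A list of peaks says nothing of how many reads lay in such a stretch.

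Since runs are defined by close spacing, the distances within them are a description and not a separate result. The free distance between neighbours in a run had a median of 330 bp (quartiles 230 and 450, n = 192), and 88.5% of these distances were at most 600 bp. Medians by run were 350, 330, 330 and 300 bp. Distances outside runs had a median of 2570 bp (n = 39), and nuclear distances one of 1610 bp with 20.9% at most 600 bp. In the plastid the median was 230 bp.

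**Figure D4:**
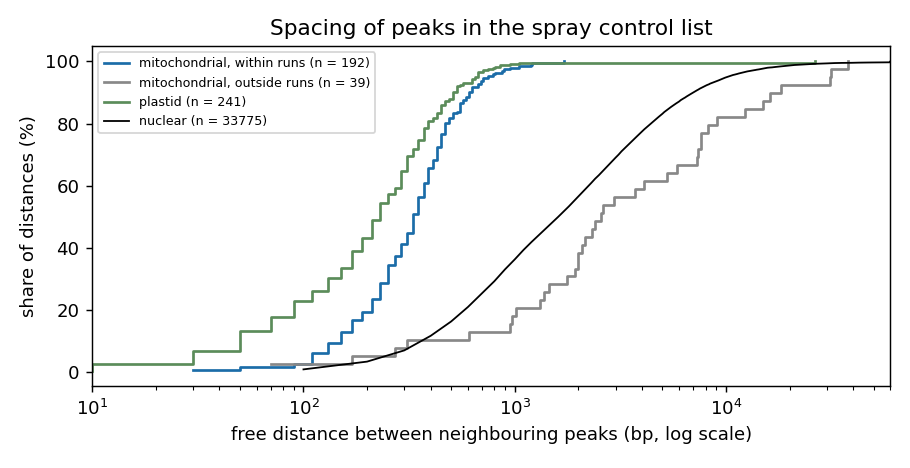
Cumulative share of free distances between neighbouring peaks (bp, log scale) for mitochondrial peaks within and outside runs, plastid peaks and nuclear peaks of the spray control list. The median within runs (330 bp) lies between that of the plastid (230 bp) and the nuclear one (1610 bp). The largest free distance allowed within a run fixes the upper end of its curve.

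The deposited −log10 p (column 8) was often shared by neighbouring peaks in the runs. It ends at 324 in all lists, a value reached by 109 mitochondrial peaks (47.0%) and by 39.5% of nuclear peaks. The 96 run peaks under 324 had 27 distinct values, while the 27 outside had 27. The value 259.088 was shared by 13 peaks from 30761 to 36470. Among neighbouring mitochondrial peaks that were both under 324, 69 of 113 pairs (61.1%) had equal values. The same held for 305 of 13545 nuclear pairs (2.25%). Run 3 had 324 throughout and run 4 in 44 of 49 peaks. Column 8 was therefore not used to rank members.

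**Figure D5:**
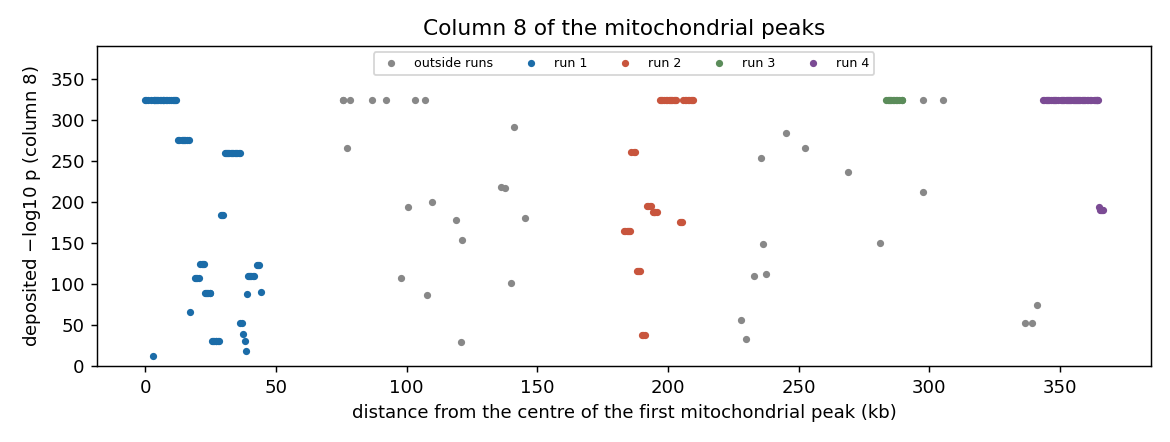
Deposited −log10 p (column 8, vertical axis) of the 232 mitochondrial peaks against distance in kb from the centre of the first peak. Flat steps, such as the 13 peaks at 259.088 in run 1, are neighbours with equal values, and the line of points at 324 is the highest value in the file.

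Positions against genes could not be given by coordinate. The only mitochondrial annotation used here belongs to TAIR10.1, whose mitochondrial sequence of 367808 bp is known to be a later version than that of TAIR10. Whether the same numbers mean the same bases in both versions was not tested, so no gene was assigned by coordinate. In TAIR10.1, matches of at least 500 bp and 95% identity on the nuclear chromosomes cover 72.4% of the mitochondrial sequence. They lie on chromosome 2 from 3239038 to 3509765, with 3465 bp on chromosome 1. What has no such match forms 5 segments of at least 1 kb, 100.6 kb in all, beside the 100.4 kb of the 4 runs.

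Lengths and places of these segments were set beside those of the runs. Reference segments of 32.2 kb (4194 to 36361) and 35.4 kb (108542 to 143952) add up to 67.6 kb, beside the 67.7 kb of runs 4 and 1 across the origin. A segment of 26.9 kb (340932 to 367808) stands beside run 2 of 26.6 kb. Neighbouring segments spanning 6.77 kb (56870 to 63634) stand beside run 3 of 6.25 kb. These pairs were picked after the lengths were seen, so their likeness is a description only. The segments added up for the first pair lie apart in the reference, while runs 4 and 1 are neighbours across the origin. At the same numbers, 61 of 86 peaks of run 1 and 49 of 49 of run 4 fell in segments without a nuclear match. Of the 61 peaks of runs 2 and 3, 0 did. Over all runs, 110 of 196 fell in segments without a match. Those segments make up 100.6 kb of the 367808 bp of the TAIR10.1 mitochondrial sequence. Counted over all 232 members, the 5 segments in order held 61, 0, 0, 8 and 50 peaks. The segment set beside run 2 by length is the one at the numbers of run 4. Since the numbers may not mean the same bases, these counts describe numbers only. The part that nuclear matches play in the runs was not tested, since the TAIR10 mitochondrial sequence was not used here.

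The reference segments without a nuclear match carry genes of several complexes. The first holds cox2, a subunit of cytochrome c oxidase, ccmB, which acts in cytochrome c maturation, nad9 and part of nad5, subunits of complex I, and the ribosomal protein genes rps3 and rpl16. The 35.4 kb segment holds cox1 and the ribosomal RNA genes rrn5, rrn18 and rrn26. The 26.9 kb segment holds atp4, a subunit of ATP synthase, nad4L and a further part of nad5. The segment from 58763 to 63634 holds nad1, and the one from 56870 to 58180 holds no gene. Entries of rps19 and of transfer RNA genes in these segments are not itemized here. None of the 232 peaks is assigned to these genes here.

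Nuclear copies of mitochondrial sequence could be looked up in lists without mitochondrial peaks. Whether the reads placed there came from the nucleus or from mitochondria was not tested. In the spray control 58 nuclear peaks had their midpoint in a copy, all on chromosome 2, with a median signal of 1066 and a range of 554 to 2690. That is 21.4 peaks per 100 kb, against 28.4 on the nuclear chromosomes, and their median was 1.03 times the nuclear median. It lay between those of mitochondrial peaks in runs (2976) and outside runs (824). Of the 58, 52 (89.7%, 95% Wilson interval 79.2 to 95.2%) were letter for letter present in the TAIR10.1 mitochondrial sequence over their whole width, as were 89.4% of 1347 windows of 150 bp over the chromosome 2 copy. With 36 bp added on both sides, 47 of the 58 were.

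The matching places lay between mitochondrial genes in a share close to that of the copied sequence as a whole. Of the 52, 43 had their midpoint between annotated genes (82.7%, 70.3 to 90.6%), against 82.2% of windows over the copied part of the mitochondrial sequence. Coding sequence held 1 of the 52, against 8.88% of those windows, in matR, a maturase gene inside an intron of nad1. RNA genes or pseudogenes held 1, against 0.602% of windows, at a gene for an initiator methionine tRNA, trnfM(CAT). Introns held 7, against 8.35% of windows, in nad1, nad2, nad5 and nad7, subunits of complex I, and rpl2, a ribosomal protein gene. The peak with the highest signal in a copy (2690), whose letters are printed above, matched a place between genes.

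The dark-grown series overlapped spray control copy peaks in shares whose intervals include those of all nuclear peaks. The other LD lists held no peak in the copies. Nuclear copies carried 53 peaks in the dark list, 47 in the 30 min list, 47 in the 3 h list and 48 in the 24 h list. A dark peak overlapped 46 of the 58 spray control peaks (79.3%, 67.2 to 87.7%), against 70.1% of all nuclear spray control peaks. The 30 min list overlapped 44 (75.9%, 63.5 to 85.0%, background 70.1%). The 3 h list overlapped 46 (79.3%, 67.2 to 87.7%, background 75.6%) and the 24 h list 43 (74.1%, 61.6 to 83.7%, background 63.4%). For each list of the dark-grown series the background lies within the interval. Taken from the other side, 46 of 53 copy peaks of the dark list overlapped a spray control peak (86.8%, against 81.9% of all its peaks). The counts were 44 of 47 in the 30 min list (93.6%, background 82.2%), 46 of 47 in the 3 h list (97.9%, background 81.4%) and 43 of 48 in the 24 h list (89.6%, background 80.1%). In the LD control 0 of the 58 were overlapped, with a background of 83.7%, and after heat shock 0, with a background of 78.2%. Whether peaks in the copy were removed from these lists before deposit is not given in the sources used here, so the zeros cannot be read as closed chromatin. All 4 lists of the dark-grown series had a peak at 35 of the 58 places (60.3%, 47.5 to 71.9%), against 56.6% of all nuclear spray control peaks, and none of those lists did at 7 (12.1%, 5.97 to 22.9%), against 18%. These last backgrounds, for all 4 lists and for none, lie within their intervals. The shares taken from the other side were each above their background, and no interval was computed for them. Peaks are not independent, so none of this is a test.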

How the data were processed

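DNase I-seq peak files of 14 samples were read; the 2 files of each of the 7 libraries were checked to be identical and counted once. RNA-seq samples (6) were not analysed here. The submitters' processing notes name Bowtie 0.12.7, CASAVA 1.8.2 and build TAIR10. How peaks were called, how reads with several matches were treated, the read depth and whether organelle peaks were removed is not given in the sources used here. Per the labels' protocols, nuclei captured through biotin were digested at 25 °C for 3 min (DNase I, 45 units), and small fragments were sequenced.

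The deposited files have 10 columns and no header. Column 7, a signal per peak as deposited by the authors, was read as a whole number without known normalization. Column 8 was read as the authors' −log10 p-value from the file layout. Depth is unknown.

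Members are all peaks on the mitochondrial sequence of the spray control list. The members and lists were chosen with earlier results of these data known. Peaks named are the 10 highest and 5 lowest by signal, the first and last, and those beside the 5 longest empty stretches; others are marked as picked after their values were seen or follow the definitions given with them. Coordinates are 1-based. Nuclear copies were found with BLAST 2.17.0 by matching the TAIR10.1 mitochondrial sequence to its nuclear chromosomes. Nuclear coordinates were checked: 57.9% of nuclear spray control peaks had their midpoint near a gene start (up to 1000 bp before it or 200 bp after it), and 28.4% after a shift of 5000 bp. Peak lists were compared by an overlap of at least 1 bp. Intervals are Wilson intervals at the 95% level and cover counting error over peaks, which are not independent molecules. Runs were found with a script tested on simulated positions. Python 3.11.15, numpy 2.4.6, scipy 1.17.1 and matplotlib 3.10.9 were used.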

Additional observations from a re-analysis of the deposited data

How the results depend on the processing

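Of 16 alternatives computed, 13 left their value within 1.5 times of the reported one (within 5 points for a percentile). Some of these 13 could not have moved it. The count of mitochondrial peaks was 232 when either file of the library was left out, a fixed outcome because the files are identical. Keeping only peaks of 150 bp also had to leave 232, since every member has that width. The count was 204 in the upper 50% and 178 in the upper 10% of the list by signal. The density ratio of mitochondrial to nuclear sequence was 2.23 as reported, 2.03 with peaks within 150 bp merged and 3.98 in the upper 50% by signal. The 15 empty stretches of at least 5 kb became 7 at a minimum of 10 kb, and 4 when only the upper 50% of mitochondrial peaks by signal was kept; a longer minimum and fewer peaks give fewer, longer stretches by construction. Peaks in runs numbered 196 in 5 runs with a largest free distance of 1500 bp and 200 in 4 runs with 2500 or 5000 bp, settings chosen after seeing the data. Peaks in nuclear copies numbered 58 under each definition of a copy tried. Placement inside mitochondrial genes was not run, since the annotation belongs to another mitochondrial sequence. No paired analysis was possible because each condition has 1 library and no result comes from a test.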

Other observations

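The plastid sequence of the same list holds a long repeat without peak midpoints. Its inverted repeat, found by matching the plastid sequence to itself, has copies of 26.3 kb at 84171 to 110434 and 128215 to 154478. Neither copy held the midpoint of any of the 242 plastid peaks. The whole plastid sequence has 154478 bp. How reads with several matches were treated is not given in the sources used here. What the repeat has to do with the missing peaks was not tested. In TAIR10.1 the mitochondrial sequence has repeats of 4.19 kb and 6.59 kb, which cannot be placed on the deposited mitochondrial coordinates.

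The chromosome 2 copy extends over 270.7 kb. In the LD control and the LD heat shock no peak lay between 3188590 and 3663001, a distance of 474.4 kb that includes it. Whether peaks there were removed from these lists before deposit is not given in the sources used here. In the spray control the nearest peaks on either side ended at 3045650 and began at 3527441, with 58 peaks touching the copy in between. In the dark list they ended at 3088610 and began at 3605861, with 53 in between.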
